A study of Homo sapiens with 24 samples.

Results

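The comparison described here is the difference between an atrial and a ventricular differentiation protocol in heart cells that had been targeted at LHX2, a transcription factor of the LIM homeobox family. It covers 6 of the 24 libraries of the study, chosen by their labels: 3 libraries of the group AM LHX2 and 3 of the group VM LHX2, with replicates numbered 1, 2 and 3 in each. The cells derived from HES3, a human embryonic stem cell line, and carried a GFP reporter at NKX2-5 and an mCherry reporter at NR2F2 in every group. LHX2 had been targeted with CRISPR-Cas9, and the same line targeted at TRAC, the constant segment of a T-cell receptor chain, served as the control of the study. ZNF503 and ZNF711 were the other targets, so that all 24 libraries came from targeted cells and none from untargeted ones. Cells were differentiated as embryoid bodies, which are aggregates of cells in suspension, with modulation of Wnt signalling for at most 14 days. The atrial cultures received retinoic acid on day 4 and the ventricular cultures did not. AM and VM are not spelled out in the labels and were read as these atrial and ventricular cultures. How many clones carried each targeted genotype, and whether replicates were separate differentiations, was not stated, and p-values therefore measure the spread between these samples, which may be technical.

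Retinoic acid is a vitamin A derivative made by retinaldehyde dehydrogenases and broken down by enzymes of the CYP26 family. It binds retinoic acid receptors, which pair with retinoid X receptors on DNA and change the transcription of nearby genes, the HOX genes among them. In the developing heart it acts on the posterior progenitors that form the atria and the inflow tract, and the nuclear receptors NR2F1 and NR2F2 then maintain atrial identity, whereas IRX4 and HEY2 are transcription factors of ventricular muscle.

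Each LHX2 library held between 2899786 and 5209349 counts, and between 22810 and 24908 genes had at least 1 count. Levels are given as CPM, which are counts divided by the library total times 1e+06, scaled with the trimmed mean of M values, in the order of replicates 1, 2 and 3, and levels of different genes are not compared because CPM are not divided by gene length. VM replicate 3 stood apart from the other libraries: the hepatic genes described below took 1.36% of its counts, against 0.0525% to 0.367% in the other 5, and mitochondrial ribosomal RNA 0.23% against 0.00621% to 0.0321%. The hepatic share of AM replicate 3, 0.158%, was the highest of the AM libraries. Where leaving out both of them ended a reported call of a gene, the value without them is given as well. The same holds where this moved a called gene's printed log2 fold change, or a list's number of called genes, by over 1.5 times. Such values are not all given for genes that were not called, or whose difference is given as a ratio or bound. LHX2 itself was close to absent in both groups, with 3, 2 and 11 counts in AM and 8, 2 and 14 counts in VM. Its log2 fold change was -0.35 ± 0.74 (SE), adjusted p = 0.857, and a count per gene does not show whether a transcript carries an edit, so its level is no check of the targeting. Cardiomyocyte genes were abundant in both groups, with MYH6, the alpha myosin heavy chain, at 6139, 4864 and 9217 CPM in AM and 10817, 12159.8 and 6547 CPM in VM.

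Of 17724 genes tested, 1517 differed between AM LHX2 and VM LHX2 at an adjusted p below 0.05, which is 8.56% of them. They are called genes in what follows, and "rose" means higher in AM than in VM and "fell" lower. The 830 genes that rose were 4.68% of the tested genes and the 687 that fell were 3.88%. These shares belong beside every list count below, and a list with only 1 or 2 calls is not read as a result about its members. A change of at least 2-fold was reached by 585 of the genes that rose and 392 of those that fell, and a change of at least 8-fold by 171 and 96. The median log2 fold change over all tested genes was 0.002. The CPM of the groups did not overlap for 1492 of the called genes, and for 23.9% of all tested genes. With the replicate number as a block, 2781 genes were called (15.7%), 1408 higher (7.94%) and 1373 lower (7.75%), among them 1515 of the 1517. Without both replicates 3 the number was 970 (5.26%), 580 higher (3.14%) and 390 lower (2.11%), and 878 of the 1517 were among them. Single libraries moved the count too: it was 902 without AM replicate 2 and 1011 without AM replicate 1, and 678 genes, 437 higher and 241 lower, were called in all 6 fits that left out 1 LHX2 library.

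**Figure D1:**
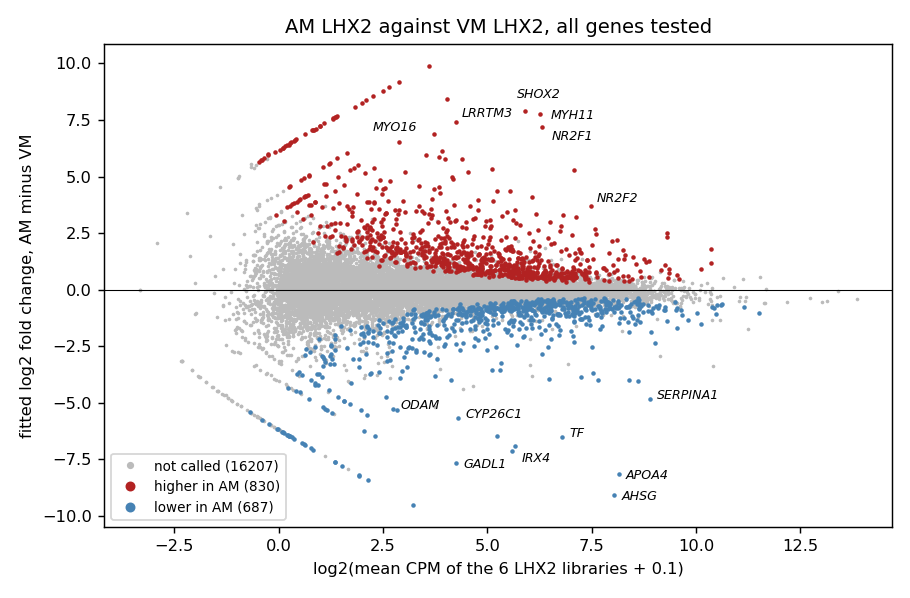
Fitted log2 fold change of AM LHX2 against VM LHX2 (vertical axis) for each of 17724 tested genes, by the log2 of its mean CPM over the 6 libraries (horizontal axis). Coloured points are the 830 genes called higher and the 687 called lower, and the named genes are those described in the text.

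The atrial marker NR2F2 and the ventricular marker IRX4, which were chosen with earlier results of these data known, differed between the groups. NR2F2 (chromosome 15, 96325938 to 96340263, plus strand, GRCh38), the orphan nuclear receptor that keeps atrial muscle atrial and whose locus carries the reporter, was at 320.2, 361 and 322 CPM in AM and 20.5, 18.9 and 37.8 CPM in VM. The lowest AM library was far above the highest VM library, and the log2 fold change was 3.70 ± 0.31 (SE), adjusted p = 3.8e-08. IRX4 (chromosome 5, 1877413 to 1887236, minus strand), a homeodomain factor of ventricular muscle, was at 1.61, 0.259 and 0.38 CPM in AM and 93.4, 132 and 62.4 CPM in VM. All AM libraries were near the detection limit of 3 counts, which equals 0.570 to 0.963 CPM in the AM libraries, and all VM libraries were high, with a log2 fold change of -7.13 ± 0.74 (SE), adjusted p = 3.08e-06, and -8.09 without AM replicate 1. In RNA from whole cultures, fewer cells of a type and less RNA per cell cannot be told apart, here and in all results that follow.

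The genes of largest fold were taken among those whose groups did not overlap and whose higher group had at least 50 counts in every library. The separation of their libraries is thus a condition of the choice and no added support. Those with the largest rise, 10 in number, were SHOX2, MYH11, LRRTM3, NR2F1, MYO16, CDH17, CDH12, ZNF385B, KCNJ3 and DACH2. SHOX2 (chromosome 3, 158095954 to 158106503, minus strand), a homeobox gene of the sinus venosus and the pacemaker, was at 134, 147 and 73 CPM in AM and 0.188, 0 and 1.2 CPM in VM. MYH11 (chromosome 16, 15703172 to 15857033, minus strand), the smooth muscle myosin heavy chain, was at 167, 184 and 103 CPM in AM and 0.188, 0 and 1.8 CPM in VM. Both were high in all AM libraries, lowest in AM replicate 3, and close to 0 in all VM libraries, with log2 fold changes of 7.90 ± 0.78 (adjusted p = 2.33e-06) and 7.77 ± 0.70 (adjusted p = 7.1e-07). NR2F1 (chromosome 5, 93583224 to 93594615, plus strand), the close relative of NR2F2, was at 171, 188 and 114 CPM in AM and 0.564, 0 and 2.6 CPM in VM. It showed the same order of libraries, with a log2 fold change of 7.18 ± 0.82 (SE), adjusted p = 1.57e-05. Most VM counts of these 3 genes came from replicate 3, and without that library the log2 fold changes of SHOX2, MYH11 and NR2F1 were 9.88, 10.24 and 8.93, or 10.14, 10.46 and 9.12 without both replicates 3. VM replicates 1 and 2 held 1 and 0 counts of SHOX2, 1 and 0 of MYH11 and 3 and 0 of NR2F1. The values without VM replicate 3 therefore rest on few counts. DACH2, a transcriptional cofactor of the dachshund family on chromosome X, had a log2 fold change of 5.76 ± 0.53 (SE), adjusted p = 8.63e-08.

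The other genes of this group are a mixed set, with genes of surface proteins, a myosin and a zinc finger gene among them. LRRTM3, a synaptic adhesion protein, was at 33.1, 35.7 and 44.7 CPM in AM and 0, 0 and 0.6 CPM in VM. MYO16, an unconventional myosin, was at 26.7, 26.1 and 25.7 CPM in AM and 0.188, 0 and 0.4 CPM in VM. In both the AM libraries were alike and the VM libraries held 1 to 3 counts in all, so that the ratio of pooled CPM was 195 (95% counting interval 66.2 to 947) for LRRTM3 and 130.5 (95% counting interval 44.2 to 636) for MYO16, with adjusted p of 2.41e-10 and 2.21e-09. CDH12, a neuronal cadherin, rose with a log2 fold change of 5.97 ± 0.66 (SE), adjusted p = 1.01e-06, and ZNF385B, a zinc finger gene, with 5.84 ± 0.90 (SE), adjusted p = 0.000212. The log2 fold change of CDH12 was 7.53 without VM replicate 2, and that of ZNF385B was 7.82 without VM replicate 3 and 7.98 without both replicates 3. These values rest on few VM counts. For CDH12 they were 0 and 1 in VM replicates 1 and 3, and for ZNF385B 1 and 0 in VM replicates 1 and 2. CDH17, the cadherin of liver and intestine, was at 19.9, 21.7 and 47 CPM in AM and 0.376, 0.213 and 0.6 CPM in VM. AM replicate 3 was highest, and the log2 fold change of 6.14 ± 1.38 (SE), adjusted p = 0.00853 did not pass the threshold without both replicates 3 (adjusted p = 0.0851).

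The 10 with the largest fall by the same rule were AHSG, APOA4, GADL1, IRX4, APOC3, TF, PLG, CYP26C1, ODAM and SERPINA1, of which AHSG, APOA4, APOC3, TF, PLG and SERPINA1 encode plasma proteins and are described with the hepatic genes. GADL1 (chromosome 3, 30726200 to 30894765, minus strand), an enzyme of the amino acid decarboxylase family, was at 0, 0 and 0.38 CPM in AM and 41.9, 53.6 and 17.6 CPM in VM. The AM libraries held 2 counts in all, both in replicate 3, and the ratio of VM to AM was 229 (95% counting interval 63.2 to 1899) with an adjusted p of 0.000356. ODAM, a secreted protein of tooth epithelium, was at 0, 0 and 0.761 CPM in AM and 9.4, 17 and 12.4 CPM in VM. Its VM libraries were all above its AM libraries, as the rule required, and its log2 fold change was -5.26 ± 0.75 (SE), adjusted p = 3.3e-05. All 4 of its AM counts came from replicate 3: without that library the group was at 0, and the fitted value, -9.01 (or -9.04 without both replicates 3), then depends on the prior count.

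Of the 16 genes of the atrial list, 11 rose and 2 fell, with a median log2 fold change of 1.81 against 0.002 over all genes. The genes that rose included channels of atrial muscle. KCNJ3, a subunit of the acetylcholine-gated potassium channel, was at 33.7, 30.5 and 28.9 CPM in AM and 0.188, 0.213 and 1.2 CPM in VM, a log2 fold change of 5.80 ± 0.70 (SE), adjusted p = 7.49e-06, and 7.11 without VM replicate 3 or 7.16 without both replicates 3. KCNJ5, the partner subunit of that channel and a member of the same list, was at 13.5, 17.6 and 33.7 CPM in AM and 49.4, 66.3 and 39.8 CPM in VM. All its AM libraries were below all its VM libraries, and its log2 fold change of -1.24 ± 0.40 (SE), adjusted p = 0.06 passed the threshold without both replicates 3 (adjusted p = 0.02). KCNA5, which carries the ultrarapid potassium current, was at 54.3, 67 and 41.1 CPM in AM and 8.08, 18.7 and 9.21 CPM in VM, a log2 fold change of 2.17 ± 0.34 (SE), adjusted p = 0.000124. CACNA1D, a calcium channel of atrial and pacemaker cells, was at 324, 258 and 289 CPM in AM and 94, 78.2 and 50.8 CPM in VM, a log2 fold change of 1.96 ± 0.23 (SE), adjusted p = 2.78e-06. In KCNJ3, KCNA5 and CACNA1D all AM libraries were above all VM libraries, by a wide margin for KCNJ3. The transcription factors TBX5 and HEY1 rose by less, with log2 fold changes of 1.08 ± 0.21 (adjusted p = 0.00115) and 1.66 ± 0.27 (adjusted p = 0.00019).

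PAM, a peptide-processing enzyme abundant in atrial granules, VSNL1, a calcium sensor, and MYBPHL, an atrial myosin-binding protein, rose as well, with log2 fold changes of 1.14, 2.23 and 3.86 and adjusted p of 0.000761, 0.00772 and 8.42e-05. SLN, the atrial inhibitor of the calcium pump, was at 1.28, 5.43 and 3.04 CPM in AM and 0, 0.213 and 0.4 CPM in VM. Its VM libraries held 1 to 3 counts in all, and the ratio was 16.8 (95% counting interval 5.35 to 84.7) with an adjusted p of 0.0131. That call was lost without AM replicate 2 (adjusted p = 0.0788) and without VM replicate 1 (0.0602). Neither NPPA, the atrial natriuretic peptide, nor GJA5, the atrial gap junction protein connexin 40, was called: NPPA was at 3.21, 0.776 and 17.1 CPM in AM and 6.96, 5.95 and 12 CPM in VM, with overlapping groups, and the adjusted p of GJA5 was 0.0799, or 0.0398 with the block. The atrial light chains went the other way. MYL7 was at 371, 368 and 795 CPM in AM and 1154, 1499.7 and 1184 CPM in VM, and its log2 fold change was -1.32 ± 0.34 (SE), adjusted p = 0.0165. MYL4 was at 259, 261 and 415 CPM in AM and 510.5, 775 and 529.7 CPM in VM, and its log2 fold change was -0.96 ± 0.27 (SE), adjusted p = 0.0245. All AM libraries of both genes were below all VM libraries, with AM replicate 3 the highest of the AM libraries. The call of MYL7 was lost without AM replicate 1 (adjusted p = 0.0989), without AM replicate 2 (0.103) and without VM replicate 2 (0.0718), and that of MYL4 without AM replicate 1 (adjusted p = 0.126), without AM replicate 2 (0.13) and without VM replicate 2 (0.146).

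Of the 16 genes of the ventricular list, 8 fell and 2 rose, with a median of -1.04. HEY2, a repressor that acts in compact ventricular muscle, was at 4.82, 4.14 and 7.23 CPM in AM and 56.6, 78.6 and 56 CPM in VM, a log2 fold change of -3.53 ± 0.41 (SE), adjusted p = 3.58e-06. MYH7, the ventricular myosin heavy chain, was at 26.3, 25.1 and 81.9 CPM in AM and 722, 761 and 715 CPM in VM, a log2 fold change of -4.02 ± 0.57 (SE), adjusted p = 0.000133, and -4.83 without AM replicate 3 or -4.85 without both replicates 3. The groups lay far apart for both, and AM replicate 3 was the highest AM library. MYL2, the ventricular regulatory light chain, was at 0, 0 and 0 CPM in AM and 3.2, 2.34 and 9.21 CPM in VM. No AM library held a count, so that MYL2 was at least 5.1-fold lower in AM (adjusted p = 0.000913), taking 3 counts in a library as the limit. FHL2, a LIM protein of the sarcomere, fell with a log2 fold change of -1.69 ± 0.27 (SE), adjusted p = 0.000128. The genes that rose were KCNJ2, the inward rectifier of ventricular muscle, at 27.6, 31 and 45.1 CPM in AM and 6.77, 8.29 and 9.21 CPM in VM, and IRX5, at 29.9, 44.5 and 22.6 CPM in AM and 9.59, 11.5 and 9.81 CPM in VM. Their log2 fold changes were 2.10 ± 0.26 (adjusted p = 4.97e-06) and 1.65 ± 0.31 (adjusted p = 0.000893), and neither overlapped between groups. MYL3, the other ventricular light chain, was lower in all AM libraries without passing the threshold (log2 fold change -1.14 ± 0.37 (SE), adjusted p = 0.0665), which it passed without both replicates 3 (adjusted p = 0.0281) and by DESeq2 (0.0348).

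**Figure D2:**
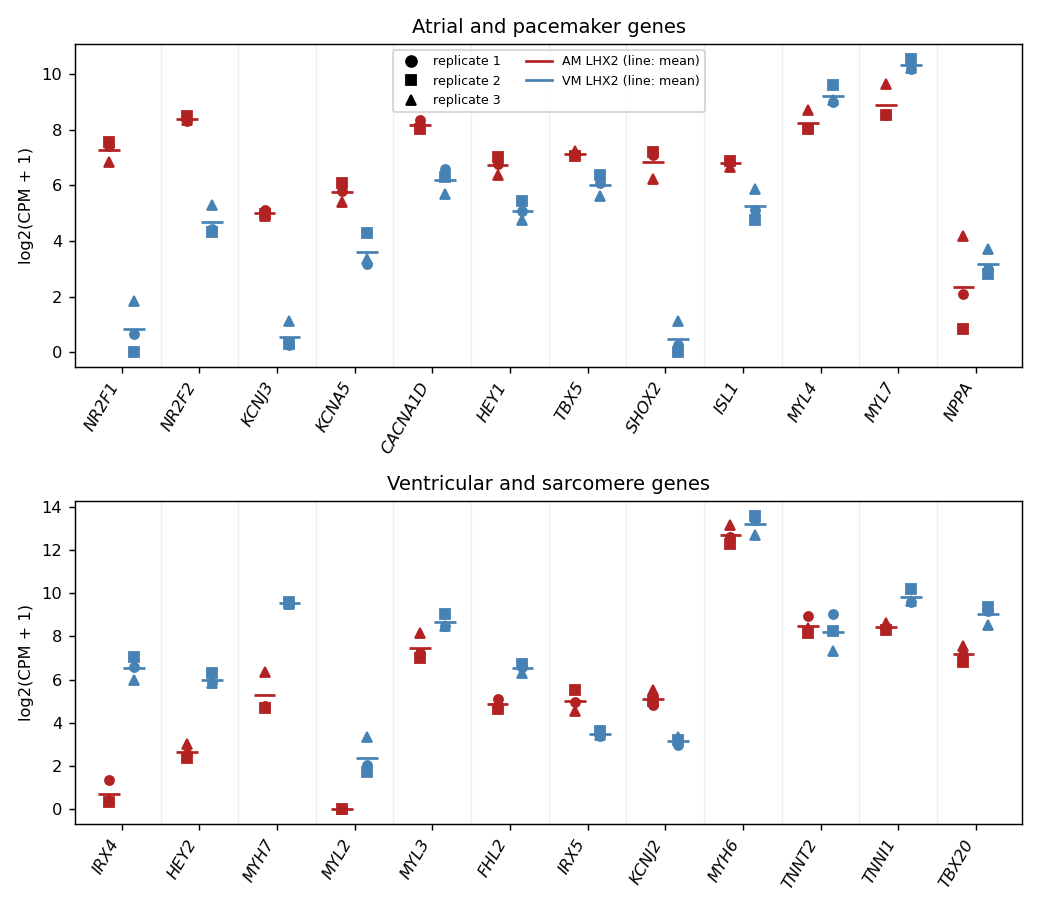
Level in each LHX2 library as log2(CPM + 1) (vertical axis) for atrial and pacemaker genes (upper panel) and for ventricular and sarcomere genes (lower panel), with AM in red, VM in blue, a symbol for each replicate number and a line at each group mean. NR2F1, KCNJ3 and SHOX2 lie near 0 CPM in all VM libraries and IRX4 and MYL2 in all AM libraries, whereas the groups of NPPA, MYH6 and TNNT2 overlap.

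In the list of sarcomere and shared cardiomyocyte genes, which also holds transcription factors and calcium-handling genes, more were called lower than higher in AM. Of its 22 genes 6 fell and 2 rose (median -0.52), and with the block 9 fell and 3 rose. The summed level of the list was 28802, 25170.5 and 34550 CPM in AM and 47075, 46383 and 26327.5 CPM in VM. The groups overlapped in that sum, with VM replicate 3 below AM replicates 1 and 3. TNNI1, the slow skeletal troponin I of fetal heart, was at 339, 315 and 398 CPM in AM and 757, 1182 and 801 CPM in VM, a log2 fold change of -1.38 ± 0.25 (SE), adjusted p = 0.000793. TNNC1, cardiac troponin C, was at 39.8, 29.2 and 55.5 CPM in AM and 125, 199 and 179 CPM in VM, a log2 fold change of -2.00 ± 0.40 (SE), adjusted p = 0.00273. Every AM library was below every VM library for both. TBX20, a T-box factor of chamber muscle, fell with a log2 fold change of -1.85 ± 0.31 (SE), adjusted p = 0.000452, and MEF2C, a factor that drives muscle genes, rose with 0.86 ± 0.18 (SE), adjusted p = 0.00285. ATP2A2, the calcium pump of the sarcoplasmic reticulum, was at 1295, 1267 and 1783 CPM in AM and 756, 886 and 652 CPM in VM. It rose, with a log2 fold change of 0.92 ± 0.18 (SE), adjusted p = 0.0014, but not without both replicates 3 (adjusted p = 0.0799). TNNT2, cardiac troponin T, was at 488, 279.7 and 329.9 CPM in AM and 520.4, 307 and 157 CPM in VM. Its groups overlapped and its log2 fold change was 0.15 ± 0.53 (SE), adjusted p = 0.92. Those of MYH6 and TTN, the giant elastic protein titin, were -0.55 ± 0.35 and -0.42 ± 0.37, with adjusted p of 0.421 and 0.592.

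The list of 14 sinoatrial and pacemaker genes held 7 genes that rose, and none fell in edgeR's test (1 at an unadjusted p under 0.05, 0 by DESeq2) (median 1.17). With the block 8 rose and 1, the calcium channel CACNA1H, fell (adjusted p = 0.00562 with the block), and without both replicates 3 5 rose. Beside SHOX2, ISL1, a LIM homeobox factor of the second heart field and the sinoatrial node, was at 114, 116 and 99.4 CPM in AM and 33.8, 25.9 and 56.6 CPM in VM, a log2 fold change of 1.50 ± 0.26 (SE), adjusted p = 0.000367. BMP4, a secreted growth factor, was at 97, 101 and 134 CPM in AM and 18.8, 18.5 and 37.2 CPM in VM, a log2 fold change of 2.16 ± 0.35 (SE), adjusted p = 0.00037. RGS6, a brake on G-protein signals in the node, was at 22.2, 20.7 and 25.7 CPM in AM and 7.71, 5.95 and 9.21 CPM in VM, a log2 fold change of 1.58 ± 0.23 (SE), adjusted p = 5.37e-05. Groups did not overlap in any of the 3. CACNA1G, a T-type calcium channel, rose with a log2 fold change of 1.87 ± 0.44 (SE), adjusted p = 0.0104, and its call was lost without both replicates 3 (adjusted p = 0.123) and without VM replicate 3 (0.0583). The pacemaker channel HCN4 and the repressor TBX3, which mark the node itself, were not called: HCN4 was at 322, 299 and 379 CPM in AM and 336, 518 and 276 CPM in VM and TBX3 at 50.1, 41.1 and 83.7 CPM in AM and 50.2, 38 and 88.3 CPM in VM, with overlapping groups in both. Of 17 further ion channel genes tested, 1 rose and 3 fell, 2 and 3 with the block, and 2 were called in all without both replicates 3. Over all tested genes 4.68% rose and 3.88% fell, or 7.94% and 7.75% with the block, and 1 rise in this list is near that share. KCNJ11, the pore of the ATP-sensitive potassium channel, fell with a log2 fold change of -1.81 ± 0.42 (SE), adjusted p = 0.00562.

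Among 22 genes of retinoid metabolism and signalling, 3 rose and 2 fell, and 4 rose and 5 fell with the block. DHRS9, an enzyme that oxidises retinol, was at 19.3, 16 and 23.8 CPM in AM and 0.752, 1.28 and 0.4 CPM in VM, a log2 fold change of 4.58 ± 0.36 (SE), adjusted p = 2.99e-09. RXRG, a retinoid X receptor, was at 8.03, 9.82 and 10.8 CPM in AM and 44.7, 50.4 and 39.2 CPM in VM, a log2 fold change of -2.21 ± 0.26 (SE), adjusted p = 2.61e-06. The AM libraries were all above the VM libraries for DHRS9 and all below them for RXRG. CYP26C1 (chromosome 10, 93060808 to 93069536, plus strand), which degrades retinoic acid, was at 1.28, 0 and 0.951 CPM in AM and 34.4, 11.7 and 69 CPM in VM. It fell, with a log2 fold change of -5.66 ± 0.88 (SE), adjusted p = 0.000243, and -4.93 without VM replicate 3. Of its exon bases, 18.9% are shared with a neighbouring gene on the same strand in GENCODE 29, so its count is uncertain. CYP26A1, the other main degrading enzyme, was at 0, 0.259 and 0 CPM in AM and 0.752, 0.85 and 3.6 CPM in VM. It was lower in all AM libraries but was not called in edgeR's test without the block (adjusted p = 0.0722, against 0.0435 with the block and 0.0485 by DESeq2), and 25.2% of its exon bases are shared in the same way.

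Of the receptor genes in the list only RXRG was called in edgeR's test. RARG and RXRA had log2 fold changes of 0.21 ± 0.27 and -0.17 ± 0.17. RARB was at 18.9, 15 and 10.8 CPM in AM and 20.1, 9.14 and 13.8 CPM in VM, with overlapping groups. Windows of 250 bases before annotated starts were searched on both strands for the element that receptor pairs bind, a direct repeat of half-sites with a spacer of 5 bases, after the values were seen. Each half-site was spelled GGTCA or GTTCA, with 6 bases of any kind between the half-sites (the spacer and the leading base of the second one). A match occurred in 2 of 41 windows of the retinoid list, in 2 of 19 genes with a window, and in 0.148% of all 35116 windows. The windows with a match are those of RARB and CYP26A1, printed 5′ to 3′ on the plus strand from RefSeq (GRCh38.p14) with the match in capitals. That of RARB is chr3:25428013-25428262 and its match ends 37 bases before the start, and that of CYP26A1 is chr10:93073643-93073892 with a match that ends 75 bases before it.
RARB: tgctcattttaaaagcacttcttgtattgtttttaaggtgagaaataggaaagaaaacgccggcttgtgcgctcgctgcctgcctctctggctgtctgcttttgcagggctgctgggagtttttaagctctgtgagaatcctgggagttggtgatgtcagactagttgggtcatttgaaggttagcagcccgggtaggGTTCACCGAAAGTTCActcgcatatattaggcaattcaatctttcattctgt
CYP26A1: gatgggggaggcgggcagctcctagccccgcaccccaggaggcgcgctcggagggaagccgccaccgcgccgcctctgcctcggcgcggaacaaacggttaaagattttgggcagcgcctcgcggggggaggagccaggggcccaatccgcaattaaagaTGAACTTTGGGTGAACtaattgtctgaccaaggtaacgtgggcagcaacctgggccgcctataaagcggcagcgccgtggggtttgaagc
The match is a description of the letters. Neither gene was called in edgeR's test without the block, though CYP26A1 passed by DESeq2 (adjusted p = 0.0485). RARB had a log2 fold change of 0.04 ± 0.29 (adjusted p = 0.964).

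HOX genes, which pattern the body axis, are known targets of retinoic acid, beginning at the 3′ end of their clusters. Of 24 HOX and MEIS genes, 10 had enough counts to be tested, 5 of them rose and none fell in edgeR's test (0 at an unadjusted p under 0.05, 0 by DESeq2). The median was 2.26, or 1.66 with genes at 0 in a group set to their bounds, and 8 rose with the block. HOXA3 was at 9.31, 14.5 and 13.1 CPM in AM and 0, 0 and 0 CPM in VM, and HOXA2 was at 3.21, 5.17 and 1.52 CPM in AM and 0, 0 and 0 CPM in VM. No VM library held a count of either, so that they were at least 19.3-fold and 5.18-fold higher in AM, with adjusted p of 3.61e-06 and 0.000571. HOXB4 rose with a log2 fold change of 2.20 ± 0.44 (SE), adjusted p = 0.00171. MEIS2, a partner of HOX proteins on DNA, was at 271, 344 and 247 CPM in AM and 147, 180.4 and 117 CPM in VM, a log2 fold change of 0.95 ± 0.20 (SE), adjusted p = 0.00253. HOXB3 and MEIS1 were called with the block (adjusted p = 0.00109 and 0.0219) and not in edgeR's test without it (0.0644 and 0.214), and by DESeq2 their adjusted p were 0.0371 and 0.181. HOXA6, HOXA7, HOXB7 and HOXB8, which lie further toward the 5′ end, had no count in any of the 6 libraries.

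Markers of cells other than muscle were read next, since embryoid bodies can hold several cell types. Of 12 epicardial genes tested 4 rose and none fell in edgeR's test (0 at an unadjusted p under 0.05, 0 by DESeq2) (median 0.02), whereas with the block 1, KRT19, fell (adjusted p = 0.00185). SFRP5, a secreted Wnt inhibitor of the venous pole, was at 43.4, 75.2 and 34.2 CPM in AM and 1.88, 3.83 and 4.2 CPM in VM, a log2 fold change of 3.94 ± 0.63 (SE), adjusted p = 0.000373. TCF21, a factor of epicardium and fibroblast progenitors, was at 19.9, 35.4 and 5.32 CPM in AM and 1.5, 2.13 and 2 CPM in VM, a log2 fold change of 3.40 ± 0.70 (SE), adjusted p = 0.00293 (2.70 without AM replicate 2), and BNC1, a zinc finger factor of mesothelium, rose with 1.71 ± 0.30 (SE), adjusted p = 0.000356. The AM libraries were all above the VM libraries in these genes, and AM replicate 2 was highest in each. TCF21 shares 30.4% of its exon bases with another gene. Defining epicardial markers were near the detection limit: WT1 was at 2.89, 0.776 and 0.761 CPM in AM and 0.188, 0.638 and 0.2 CPM in VM, UPK3B was not tested, and ITLN1 had no count. The summed level of the list was 870.3, 1039.6 and 1352 CPM in AM and 948, 1084 and 1706 CPM in VM, and its part in the other results was not tested.

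Of 16 fibroblast and matrix genes 6 rose and 1 fell (median 0.49). PDGFRA, a growth factor receptor of cardiac mesenchyme, was at 425, 422 and 398 CPM in AM and 102, 115 and 63.8 CPM in VM, a log2 fold change of 2.15 ± 0.19 (SE), adjusted p = 2.58e-08. COL3A1, a fibrillar collagen, was at 1825, 2497 and 1802 CPM in AM and 512, 405 and 868 CPM in VM, a log2 fold change of 1.78 ± 0.39 (SE), adjusted p = 0.00604. DCN, a small matrix proteoglycan, was at 9.96, 9.05 and 10.8 CPM in AM and 1.13, 0.213 and 2 CPM in VM, a log2 fold change of 3.12 ± 0.72 (SE), adjusted p = 0.00661, and 3.80 without VM replicate 3 or 3.73 without both replicates 3. The groups did not overlap in these, but COL1A1, the main fibrillar collagen, did overlap, at 1271, 1498 and 1284 CPM in AM and 943, 821 and 1510.3 CPM in VM, and LUM and POSTN were not called. The summed level of the list was 14968, 17012 and 12309 CPM in AM and 14873, 12313 and 15188 CPM in VM, with overlapping groups. Of 10 smooth muscle genes 1 rose, MYH11, and 1 fell, or 2 and 1 with the block. Beside them, 4.68% of all tested genes rose and 3.88% fell, or 7.94% and 7.75% with the block. CNN1, another gene of contractile smooth muscle, had a log2 fold change of -0.40 ± 0.24 (SE), adjusted p = 0.381.

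Of 15 endothelial and endocardial genes tested 4 rose and 1 fell, and with the block 6 and 1. NPR3, a natriuretic peptide receptor of endocardium, was at 55.2, 55.1 and 62.4 CPM in AM and 19.4, 19.3 and 27.2 CPM in VM, a log2 fold change of 1.39 ± 0.21 (SE), adjusted p = 7.83e-05, and ERG, an endothelial transcription factor, rose with 1.49 ± 0.32 (SE), adjusted p = 0.00292. STAB2, a scavenger receptor of sinusoidal endothelium and endocardium, was at 36.3, 59.5 and 0.951 CPM in AM and 0, 0 and 0.2 CPM in VM. AM replicates 1 and 2 were high, AM replicate 3 was near 1 CPM, and the VM libraries held 1 count in all, in replicate 3. The ratio was 427 (95% counting interval 76.1 to 16914), with an adjusted p of 0.00898, and the call was lost without VM replicate 3 (adjusted p = 0.0584). The pan-endothelial genes PECAM1 and TIE1 were not called, with log2 fold changes of 0.17 ± 0.23 and 0.36 ± 0.19.

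Genes of secreted liver and yolk sac proteins had the median farthest from 0 of the 24 lists. Of 17 such genes 7 fell and none rose in edgeR's test (0 at an unadjusted p under 0.05, 0 by DESeq2), with a median of -3.36. With the block 12 fell, by DESeq2 12, and without both replicates 3 the number was 3. Their summed level was 623, 500.0 and 1531 CPM in AM and 3591, 2304 and 14128 CPM in VM, so that all VM libraries were above all AM libraries and VM replicate 3 was highest by far. AHSG (chromosome 3, 186612923 to 186621318, plus strand), fetuin A, was at 0, 0 and 2.28 CPM in AM and 252, 174 and 1149 CPM in VM. TF, transferrin, was at 2.57, 2.33 and 2.28 CPM in AM and 119, 95.9 and 441 CPM in VM. SERPINA1, alpha-1 antitrypsin, was at 22.2, 24.8 and 49.1 CPM in AM and 517, 305 and 1926 CPM in VM. All 3 fell, with log2 fold changes of -9.07 ± 1.78 (adjusted p = 0.00344), -6.51 ± 1.16 (adjusted p = 0.00153) and -4.82 ± 1.01 (adjusted p = 0.00549), and each stayed below 0.05 without both replicates 3, where those of TF and SERPINA1 were -5.45 and -4.13. Without VM replicate 3 alone the 3 were -7.76, -5.48 and -3.66. All 12 AM counts of AHSG came from replicate 3: without it the group was at 0, and the fitted value, -14.35 (or -13.05 without both replicates 3), then depends on the prior count. That of SERPINA1 was lost with only the 6 LHX2 libraries (adjusted p = 0.0692).

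The apolipoproteins and plasminogen followed the same order of libraries. APOA4 was at 0.642, 0.517 and 3.99 CPM in AM and 207, 141 and 1346 CPM in VM, with a log2 fold change of -8.15 ± 1.98 (SE), adjusted p = 0.015. APOC3 was at 0, 0 and 1.9 CPM in AM and 35.7, 27.2 and 238 CPM in VM, with a log2 fold change of -6.93 ± 1.71 (SE), adjusted p = 0.0165. PLG, the precursor of plasmin, was at 0, 1.03 and 1.14 CPM in AM and 44.4, 27.6 and 152 CPM in VM, with a log2 fold change of -6.49 ± 1.64 (SE), adjusted p = 0.0189. These 3 calls were lost in several fits, and fits that left out libraries also had fewer replicates. APOA4 was lost with only the 6 LHX2 libraries (adjusted p = 0.0672) and without both replicates 3 (0.12). It was also lost without AM replicate 1 (0.0724), AM replicate 2 (0.0804) or VM replicate 3 (0.0557). APOC3 was lost with only the 6 LHX2 libraries (adjusted p = 0.112) and without both replicates 3 (0.163). It was also lost without AM replicate 1 (0.0713), AM replicate 2 (0.0818), AM replicate 3 (0.0593) or VM replicate 3 (0.0876). PLG was lost without both replicates 3 (adjusted p = 0.182). It was also lost without AM replicate 1 (0.0795), AM replicate 2 (0.0812), AM replicate 3 (0.0731) or VM replicate 3 (0.0767). Without VM replicate 3 the log2 fold changes were -6.44, -5.25 and -5.43, that of APOA4 was -9.89 without AM replicate 3, and all 10 AM counts of APOC3 came from that library, without which its fitted value was -11.97 (or -10.29 without both replicates 3). With the block their adjusted p were 2.04e-06, 2.55e-05 and 3.37e-05. APOA4 shares 43.1% of its exon bases with a gene on the opposite strand, and strand was not stated for the counts. AFP, alpha-fetoprotein, was at 146, 134 and 439.6 CPM in AM and 1251, 906 and 5242 CPM in VM. It was not called in edgeR's test (adjusted p = 0.0664), and neither were APOA1 (0.117) and APOB (0.0743). All 3 were called with the block (adjusted p = 5.57e-05, 0.000208 and 0.000126) and by DESeq2 (0.0116, 0.0144 and 0.0147). TTR, which carries thyroid hormone, and FGB, the fibrinogen beta chain, were not called: TTR was at 94.7, 70.8 and 227 CPM in AM and 43.4, 41.4 and 234 CPM in VM and FGB at 175, 144 and 346 CPM in AM and 41.4, 24.9 and 195 CPM in VM.

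Transcription factors of endoderm and gut, with the epithelial genes EPCAM and CDH1 in the same list, were called in the opposite direction to the secreted proteins. Of 16 tested 6 rose and none fell in edgeR's test (0 at an unadjusted p under 0.05, 0 by DESeq2) (median 1.32), and 8 rose with the block. RFX6, a factor of the pancreas and gut, was at 9.63, 20.4 and 13.9 CPM in AM and 0, 0 and 0 CPM in VM. No VM library held a count, and it was at least 23-fold higher in AM (adjusted p = 4.66e-07). ONECUT1, a factor of liver and pancreas, was at 23.1, 31.3 and 13.3 CPM in AM and 2.82, 0.638 and 4 CPM in VM, a log2 fold change of 3.15 ± 0.74 (SE), adjusted p = 0.00886, and 3.93 without both replicates 3. GATA6, which also acts in the heart, was at 155, 224 and 209.5 CPM in AM and 72.6, 95.6 and 69.2 CPM in VM, a log2 fold change of 1.31 ± 0.21 (SE), adjusted p = 0.00015. The groups did not overlap in any of these. PDX1, the pancreatic homeobox factor, rose with a log2 fold change of 3.38 ± 0.81 (SE), adjusted p = 0.00926, and its call was lost without AM replicate 2 (adjusted p = 0.0724) and without VM replicate 2 (0.0514). Its log2 fold change was 2.70 without AM replicate 2 and 4.08 without both replicates 3. FOXA1 and CDX2 were called with the block (adjusted p = 0.00586 and 0.0414) and not in edgeR's test without it (0.0597 and 0.25). Without the block FOXA1 passed by DESeq2 (adjusted p = 0.0256) and without both replicates 3 (0.0453), and CDX2 without VM replicate 3 (0.0454). HNF4A, EPCAM and CDH1 were not called, and their log2 fold changes were 0.40 ± 0.73, 0.29 ± 0.46 and 0.31 ± 0.33.

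**Figure D3:**
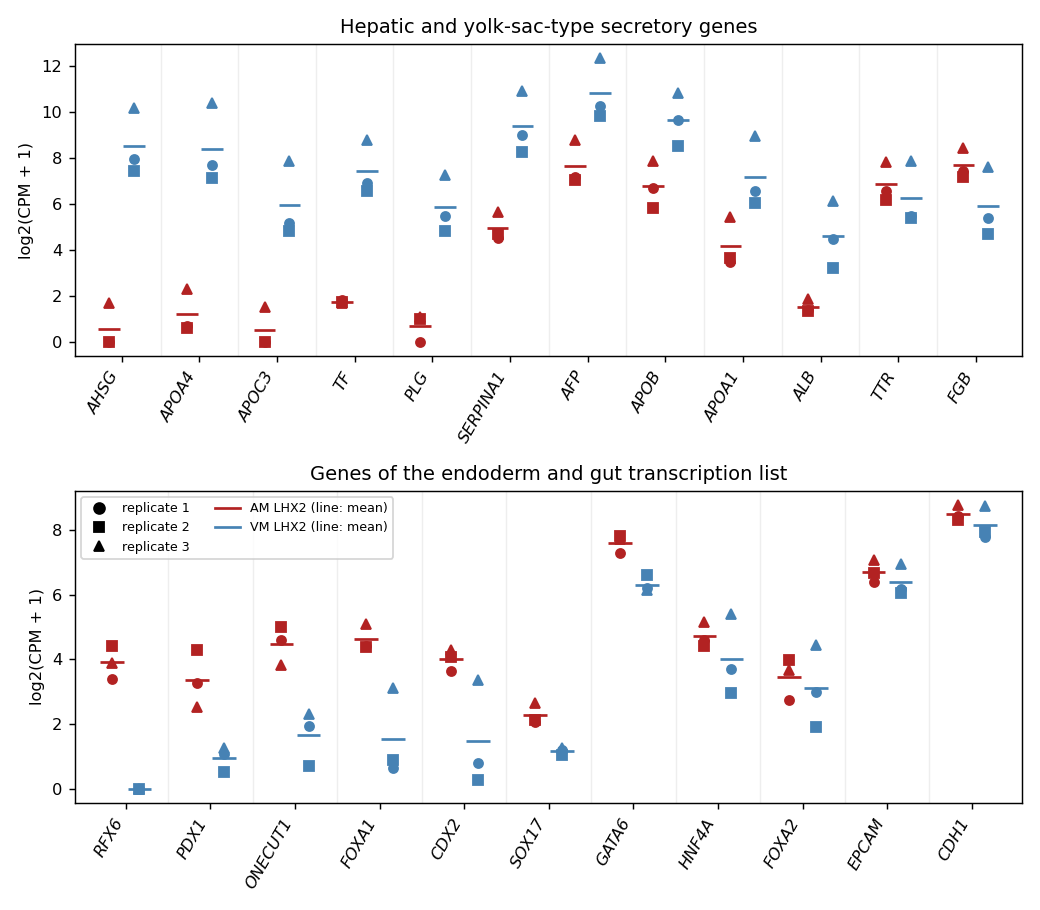
Level in each LHX2 library as log2(CPM + 1) (vertical axis) for hepatic and yolk-sac-type secretory genes (upper panel) and for genes of the endoderm and gut transcription list (lower panel), with AM in red, VM in blue, a symbol for each replicate number and a line at each group mean. AHSG, APOA4 and TF are low in all AM libraries and highest in VM replicate 3, and RFX6 is at 0 in all VM libraries.

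Genes of the Notch, BMP and TGF-beta, and WNT lists were called in both directions. Over all tested genes 4.68% rose and 3.88% fell. The 1 fall in the Notch list and the 2 rises in the BMP and TGF-beta list are not read as results about those lists. In the Notch list 3 of 14 genes rose and 1 fell, or 4 and 2 with the block: the ligand JAG1 was at 647, 727 and 496 CPM in AM and 274, 235 and 301 CPM in VM, a log2 fold change of 1.21 ± 0.16 (SE), adjusted p = 9.06e-06, and the targets HEY1 and HEY2 moved apart, as given above. In the BMP and TGF-beta list 2 of 17 rose, the ligands BMP4 and BMP7, and 3 fell. BMP7 had a log2 fold change of 0.81 ± 0.18 (SE), adjusted p = 0.00328. SMAD6, an intracellular inhibitor of BMP signals, fell with -0.71 ± 0.14 (SE), adjusted p = 0.00102. In the WNT list 5 of 19 tested rose and 3 fell. Its ligands WNT5B and WNT11 fell, with log2 fold changes of -2.41 ± 0.35 (adjusted p = 5.07e-05) and -1.92 ± 0.43 (adjusted p = 0.00429), and so did RSPO3, which amplifies Wnt signals. RSPO3 was at 28.3, 31.8 and 28.7 CPM in AM and 81.4, 85 and 86.3 CPM in VM, a log2 fold change of -1.51 ± 0.19 (SE), adjusted p = 4.08e-06. The receptor FZD7 was at 270.1, 411 and 316 CPM in AM and 40.8, 48.9 and 67.4 CPM in VM, a log2 fold change of 2.67 ± 0.23 (SE), adjusted p = 2.29e-08, and the inhibitors FRZB and NKD1 rose with 2.30 ± 0.31 (adjusted p = 1.36e-05) and 1.39 ± 0.19 (adjusted p = 1.35e-05). The groups did not overlap in any of the genes with values here.

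Of 12 second heart field and outflow genes 4 rose and 3 fell. ISL1, MEF2C and BMP7 were among the former and WNT11 among the latter, with the values given above. Genes of glycolysis and the response to low oxygen were lower in AM where they were called: 5 of 17 tested fell and none rose in edgeR's test (1 at an unadjusted p under 0.05, 1 by DESeq2) (median -0.57), or 8 and 1 with the block, and 3 fell without both replicates 3. LDHA, lactate dehydrogenase A, was at 501, 437 and 591 CPM in AM and 747, 1078 and 1043 CPM in VM, a log2 fold change of -0.91 ± 0.20 (SE), adjusted p = 0.00471. VEGFA, a growth factor for vessels, was at 322, 271 and 318 CPM in AM and 481, 459.9 and 521 CPM in VM, a log2 fold change of -0.68 ± 0.14 (SE), adjusted p = 0.00208, and BNIP3, a mitophagy receptor, fell with -1.07 ± 0.21 (SE), adjusted p = 0.0016. The AM libraries were all below the VM libraries in these genes. In the list of mitochondrial energy and maturation 3 of 18 fell and 1 rose, and with the block 7 fell and 1 rose. FABP3, the fatty acid carrier of heart muscle, fell with a log2 fold change of -1.21 ± 0.27 (SE), adjusted p = 0.00551. CKM, muscle creatine kinase, was at 23.1, 16 and 58.6 CPM in AM and 122, 186 and 147 CPM in VM. It fell, with a log2 fold change of -2.19 ± 0.48 (SE), adjusted p = 0.00695, but not with only the 6 LHX2 libraries and the block (adjusted p = 0.117). Its log2 fold change was -2.96 without AM replicate 3 and -2.98 without both replicates 3.

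**Figure D4:**
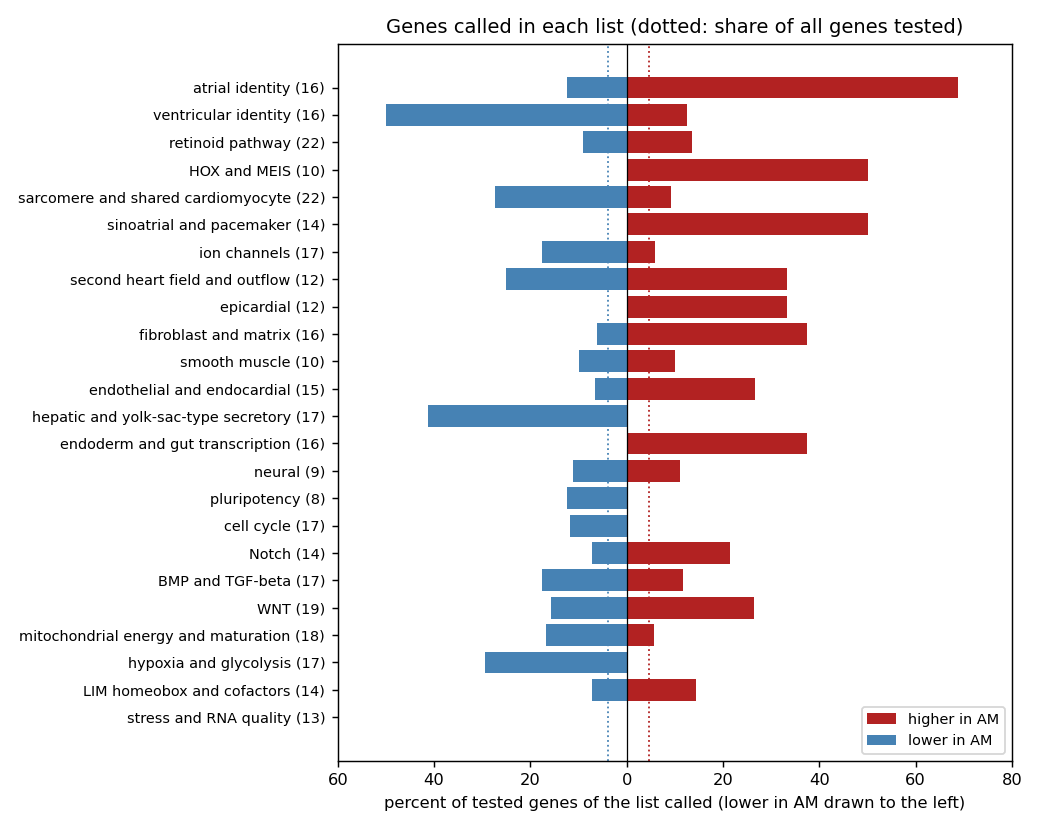
Percent of the tested genes of each list that were called higher (red, to the right) or lower (blue, to the left) in AM LHX2 than in VM LHX2, with the number tested in parentheses; dotted lines mark the 4.68% and 3.88% of all tested genes. The atrial list reaches farthest to the right and the ventricular list farthest to the left.

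The same difference between protocols was then set beside that of the TRAC control, which shares no library with it. In TRAC 2003 genes were called (11.3%), 6.18% of the tested genes higher and 5.12% lower. Of the genes called in LHX2, 1042 were also called in TRAC, which is 68.7% of the LHX2 genes and 52% of the TRAC genes, and 0 of them went in opposite directions. A further 475 genes were called in LHX2 alone and 961 in TRAC alone. The difference of the differences itself was called for 0 genes by edgeR's quasi-likelihood test and for 0 by DESeq2. In edgeR's test 660 of the 17724 genes had an unadjusted p under 0.05. With the block it was again 0, with 1456 of 17724 at an unadjusted p under 0.05. Against the mean of TRAC, ZNF503 and ZNF711 it was 0 with 843 of 17724 at an unadjusted p under 0.05, 1 by DESeq2 and 1 with the block. A p that misses the threshold does not show that the protocols acted alike in the genotypes. Across the 17724 genes the log2 fold changes of LHX2 and TRAC had a Pearson r of 0.73, a description over genes that are not independent replicates and share depth and dispersion.

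For a few leading genes the values of both genotypes are set side by side. The log2 fold change in TRAC was 3.91 ± 0.31 for NR2F2, -6.22 ± 0.63 for IRX4, -3.36 ± 0.55 for MYH7 and -7.78 ± 1.50 for AHSG. Beside them, those of LHX2 were 3.70 ± 0.31, -7.13 ± 0.74, -4.02 ± 0.57 and -9.07 ± 1.78, and with errors of this size likeness is not shown. The genes with the lowest p for the difference from TRAC were C1R, CCDC74A, LINC02024, ATP5MJ and ART5, and none passed the adjustment. C1R, a complement protease, was at 2.25, 2.59 and 1.52 CPM in AM and 4.14, 9.14 and 5.8 CPM in VM and differed from TRAC by -2.61 ± 0.58 (SE), unadjusted p = 0.000143. LINC02024, a long non-coding RNA, was at 1.61, 4.65 and 2.09 CPM in AM and 0, 0 and 0.2 CPM in VM and differed by 5.70 ± 1.37 (SE), unadjusted p = 0.000336. ATP5MJ, a small subunit of ATP synthase, was at 30.2, 29.5 and 28 CPM in AM and 38.4, 54.6 and 58 CPM in VM and differed by -1.02 ± 0.25 (SE), unadjusted p = 0.000469. Against the mean of the other 3 targets the lowest p belonged to ATP5MJ, MT-TT, C1R, ENSG00000289522.1 and NFIX, none of which passed the adjustment either. Of the other genes named here, MYO16, CDH17, KCNJ3 and RSPO3 had larger fitted changes in LHX2 than in TRAC at unadjusted p of 0.00217, 0.0419, 0.0488 and 0.0148. TIE1 and VEGFA had smaller fitted ones at 0.0258 and 0.038. These genes were picked by that p from all those named, and none passed the adjustment. With 660 of 17724 genes at an unadjusted p under 0.05, they are not read as differences between the genotypes. The lowest adjusted p of the difference from TRAC was 0.9999 in edgeR's test without the block, and ATP5MJ and ART5 reached 0.243 with it.

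**Figure D5:**
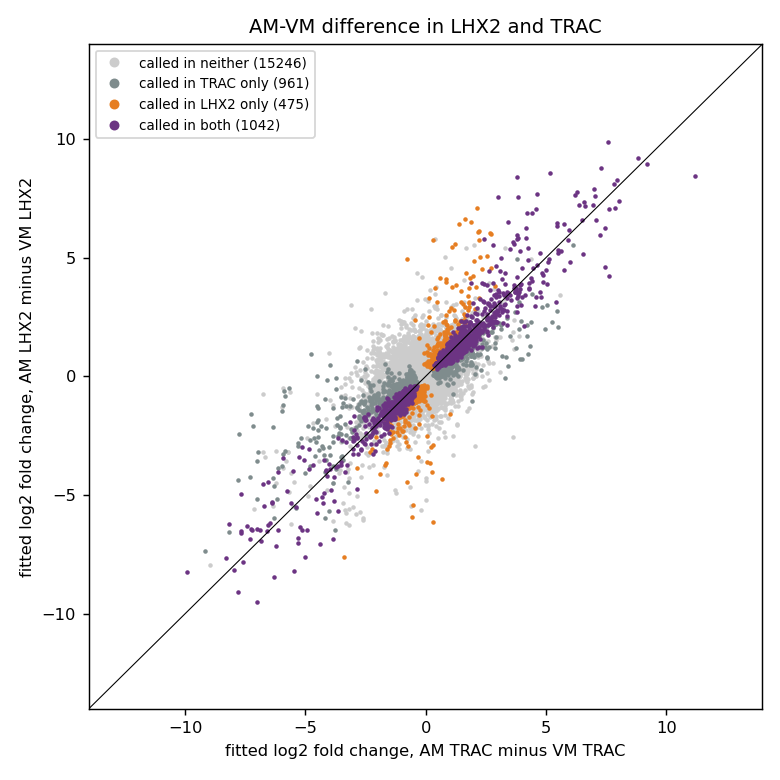
Fitted log2 fold change of AM against VM in LHX2-targeted cells (vertical axis) and in TRAC-targeted cells (horizontal axis), 1 point per tested gene, with the diagonal as a line. The 1042 genes called in both lie in the upper right and the lower left of the plot, and 475 and 961 were called in LHX2 or TRAC alone.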

How the data were processed

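RNA was sequenced from 24 libraries, of which the 3 AM LHX2 and 3 VM LHX2 libraries are compared here. The authors deposited raw gene counts, in whole counts per gene, and per the submitters' processing notes reads were aligned with STAR to GRCh38. The program that counted reads, its use of strand and the annotation release are not given in the sources used here. The labels name polyA RNA in one field and removal of ribosomal RNA in another. Each library was identified by a count column that carried its title, with 0 columns unmatched, and every row named a gene. The table listed 62757 genes, 23919 of them without a count. Symbols were matched for 42342 identifiers, which held 99.2% of counts.

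Counts were tested with edgeR 4.0.16 in R 4.3.3 (quasi-likelihood test with robust dispersion, scaling by the trimmed mean of M values, filterByExpr, 1 mean per group over all 24 libraries, 16 residual degrees of freedom). The Benjamini-Hochberg adjustment covered all 17724 tested genes, and a gene was called at an adjusted p-value below 0.05. SE is that of the fitted log2 fold change. Counting limits used 3 counts per library and 95% exact binomial intervals of pooled counts, and cover counting error only. Exon overlap and gene positions came from GENCODE 29. Biological variation (edgeR's coefficient) came to 25%, and to 16.9% once the replicate number was a block.

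Deviations from the group mean correlated by 0.418, 0.136 and 0.256 between AM and VM libraries of the same number over 11462 genes, and by -0.323 to 0.0145 between different numbers. For each gene the deviations within a group cancel out, so the values for same and different numbers are not independent of each other. The main fit did not pair libraries, and its values are those given where the block is not mentioned. A second fit paired same-numbered libraries through the block, although the labels do not say what the number stands for. The blocked value stands beside a named gene whose call it changes and beside a list count it moves by over 1.5 times. Within a group, libraries correlated by 0.956 or more (Spearman), and the chi-square per degree of freedom of 4.94 to 23.1 showed no library deposited more than once. In counts simulated for AM LHX2 against VM LHX2 over 17724 genes, 45 of 100 genes changed by 1 log2 unit and 90 of 100 changed by 2 were recovered with 2 false calls. The changed genes were drawn only from those above a minimum mean count, so recovery among genes of low count was not measured. No replicate effect and no outlying library were simulated.

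The genes and lists were chosen with earlier results of these data known: NR2F2, IRX4 and LHX2, the 10 called genes of largest rise and the 10 of largest fall among genes without overlapping CPM whose higher group held 50 counts or more in every library, the genes of 24 lists, and the 5 genes of lowest p in each difference between genotypes. Alternatives were other scalings and filters, DESeq2 1.42.0, the block, only the 6 LHX2 libraries, and leaving out libraries. Lists were counted whole, and some of their genes are not reported here by name.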

Additional observations from a re-analysis of the deposited data

How the results depend on the processing

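The number of genes called in AM LHX2 against VM LHX2, 1517, stayed within 1.5 times under other scalings and filters, DESeq2 and with only the 6 LHX2 libraries (with a block or without), and moved to 2781 with the replicate block over all 24 libraries, which pairs libraries by number, and to 970 without both libraries numbered 3. Leaving out 1 LHX2 library gave 902 to 1272. Only the fits with a block paired libraries of the same number, whose deviations were correlated, and the block lost 2 of the 1517 calls. Scaling to library size alone made 65.9% of called genes higher in AM against 54.7%, with the median of all genes shifted by 0.0952. The difference from TRAC, 0 genes, became 40 with no filter on low counts, and that from the mean of the other 3 targets, 0 genes, became 78 with no filter, 1 (MT-RNR2) with DESeq2 and 1 (MYL6) with the replicate block. Of the genes named, those that changed sign were not called in the test as reported, and LUM alone among them was called under an alternative, higher with no filter and with the block in the 6 libraries (adjusted p = 0.00994 and 0.0431). TBX3 was at 0.0904 with library size alone, 0.0051 with the block, 0.0044 with the block in the 6 libraries and 0.0438 without both libraries numbered 3, where POSTN was at -0.0624 and TNNT2 at -0.11. Leaving out 1 library moved TBX3 from -0.37 to 0.41, POSTN from -0.0628 to 0.15, TNNT2 from -0.18 to 0.67, HCN4 from -0.35 to 0.13, LHX2 from -1.10 to 0.33, LUM from -0.0754 to 1.95, NPPA from -2.11 to 0.34, PECAM1 from -0.0246 to 0.37, RARB from -0.19 to 0.38 and TTR from -0.37 to 1.64. The cause of these changes was not tested. At this depth a gene with 3 counts or fewer in a group gives a fold with a wide counting interval or only a bound. Fits that leave out libraries and leave so few counts in a group share this limit.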

Other observations

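Cells that had left the cardiac path were looked for with 3 further lists. Of 9 neural genes tested 1 rose, PAX6, and 1 fell, SOX3, both transcription factors of the neural plate. Over all tested genes 4.68% rose and 3.88% fell. In lists as short as the neural and pluripotency lists, 1 call in a direction is not read as a result about the list. PAX6 was at 8.67, 9.57 and 10.5 CPM in AM and 0.752, 0.85 and 2.4 CPM in VM, a log2 fold change of 2.82 ± 0.69 (SE), adjusted p = 0.00898 (3.55 without VM replicate 3, 3.47 without both replicates 3), and 25.2% of its exon bases are shared with another gene. SOX3 was at 0, 0.517 and 1.14 CPM in AM and 4.32, 11.3 and 5 CPM in VM, a log2 fold change of -3.41 ± 0.88 (SE), adjusted p = 0.0148, and its call was lost without AM replicate 1 (adjusted p = 0.0719), without AM replicate 2 (0.0742) and without VM replicate 2 (0.0731). Its log2 fold change was -4.48 without AM replicate 3 and -4.66 without both replicates 3. The neural genes SOX1 and NEUROD1 were at or near 0 in all 6 libraries. Of 8 pluripotency genes tested 1 fell, TDGF1, the co-receptor CRIPTO, and with the block 1 rose as well. It was at 0.321, 0 and 2.09 CPM in AM and 14.7, 17.2 and 10.2 CPM in VM, a log2 fold change of -3.91 ± 0.86 (SE), adjusted p = 0.0045, and -6.37 without AM replicate 3 or -6.55 without both replicates 3. POU5F1, the defining factor of pluripotent cells, was at 1.61, 4.65 and 2.09 CPM in AM and 3.01, 4.89 and 10.2 CPM in VM and was not called, and NANOG was not tested.

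Of 17 cell cycle genes 2 fell and none rose in edgeR's test (0 at an unadjusted p under 0.05, 0 by DESeq2), and 6 fell with the block and 1 without both replicates 3 (median -0.40). CCND1, cyclin D1, was at 54.3, 79.9 and 93.4 CPM in AM and 101, 109.9 and 150.3 CPM in VM and was not called in edgeR's test without the block (adjusted p = 0.0669, against 0.000534 with it and 0.0406 by DESeq2). Among 14 genes tested of the LIM homeobox family and its cofactors, the family of LHX2, 2 rose, ISL1 among them, and 1 fell, or 3 and 1 with the block. LDB1, the cofactor that bridges LIM proteins, was at 206, 200.4 and 199.6 CPM in AM and 190.1, 214 and 188 CPM in VM, a log2 fold change of 0.03 ± 0.13 (SE), adjusted p = 0.933. Of 13 genes of stress and RNA quality 0 were called by edgeR without the block, with 1 higher and 2 lower at an unadjusted p under 0.05 and 0 by DESeq2, and 2 fell with the block.

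Protein-coding genes made up 1397 of the 1517 called genes, 9.73% of 14352 tested. Of 2043 long non-coding genes tested 86 were called, which is 4.21%. The gene classes were taken from GENCODE 29, and the classes differ in depth of counts.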
